A study of Mus musculus with 16 samples.

Results

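The proteasome genes of red gastrocnemius muscle and visceral fat are described here across 16 RNA libraries from 8 female mice. They were taken by symbol: protein-coding genes of the deposited count table whose Ensembl identifiers map in GENCODE M21 to a symbol that starts with Psm, a letter from a to g and a digit. This gave 50 of the 55536 genes in the table, of which 22028 are protein-coding. The 50 genes were sorted by role into 7 alpha ring subunits, 4 beta subunits without an active site, 3 standard catalytic and 3 immunoproteasome beta subunits, 17 subunits of the regulatory cap, and the activators, chaperones and tissue-restricted forms. Psmc3ip carries a matching symbol but encodes a cofactor of meiotic recombination, not a subunit, and is kept apart below.

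The mice were Cre-Control (131, 137, 138 and 11) or Conditional MusMyD88-/- (139, 958, 960 and 29), which are called controls and knockouts. MyD88 is the adaptor that carries signals from most Toll-like receptors and from the interleukin-1 receptor. The series title places the knockout in muscle, so fat is the tissue outside the deletion; the sources used here give neither the promoter that drives Cre nor the age of the mice. Every mouse had 5 weeks with a running wheel and then 8 days in a small mouse cage, and there was no group without either. Muscle and fat libraries that carry the same number in the subject label were taken to come from 1 mouse, and mice are the replicates, 4 in each of the 4 groups. Values of a group are given below in the order of mice just listed.

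The proteasome degrades proteins that carry ubiquitin chains. Its core is a barrel of alpha and beta rings, in which 3 beta subunits hold the active sites: Psmb6 (caspase-like), Psmb7 (trypsin-like) and Psmb5 (chymotrypsin-like). Interferons and inflammation can induce Psmb9, Psmb10 and Psmb8, which take the places of Psmb6, Psmb7 and Psmb5 in newly built cores and give the immunoproteasome, whose peptides suit presentation by MHC class I. The cap binds, unfolds and feeds in ubiquitinated proteins, while the activators PA28 and PA200 open the core without ubiquitin. In skeletal muscle the proteasome breaks down myofibrillar proteins, and its activity is known to rise in several forms of wasting.

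Libraries held 15203806 to 21747345 counts in muscle and 13242243 to 19114782 in fat, and the 50 genes took 0.230 to 0.292% of them in muscle and 0.266 to 0.315% in fat. Myofibre markers (6 of 6) were lower and adipocyte markers (6 of 6) higher in fat than in muscle, as their labels say. Myd88 itself stood at 3.32, 3.13, 5.21 and 4.47 scaled CPM in control muscle and at 3.30, 3.04, 2.51 and 2.92 in knockout muscle, so that the groups overlapped (log2 fold change -0.47 ± 0.20 SE, edgeR adjusted p = 0.949). The sources used here do not name the deleted exons, and counts over the whole gene can hold reads from other cells and from exons that remain. Scaled CPM are CPM (counts scaled to library size) after TMM scaling over all 16 libraries. The fat library of control 138 stood apart, with the urothelial gene Upk1a at 290 scaled CPM against at most 1.68 in the other fat libraries, 11070 scaled CPM of 6 smooth muscle genes against at most 693, and 2726 of 6 adipocyte genes against at least 12860. The muscle libraries of controls 131 and 11 held 2.80 and 1.98% of their counts in the ribosomal gene CT010467.1, against at most 0.00352% in the other muscle libraries. Leaving out these libraries moves some named values and counts. The value without them is given beside several of these, but not all.

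Upstream sequences are shown for 5 genes on which the comparisons below turn: the standard catalytic subunits Psmb5 and Psmb6, the immunoproteasome subunit Psmb10, the PA28 subunit Psme2 and the PA200 gene Psme4. Each is a stretch of 150 bases upstream of the gene, read 5′ to 3′ on the strand of the gene from RefSeq promoters of GRCm38.p6, and overlaps no annotated exon. Capitals mark the letters TGANNNNGC, the core of the antioxidant response element that NRF-type factors bind. They lie 47 bases before the start of Psmb5 and 9 bases before that of Psmb6. The same letters lie 67 bases before a start of Psme2, outside the stretch shown.
Psmb5 (chr14:54618023-54618172, minus strand): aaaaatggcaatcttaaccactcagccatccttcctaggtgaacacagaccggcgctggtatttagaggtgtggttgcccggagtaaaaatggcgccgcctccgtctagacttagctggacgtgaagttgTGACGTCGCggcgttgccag
Psmb6 (chr11:70525207-70525356, plus strand): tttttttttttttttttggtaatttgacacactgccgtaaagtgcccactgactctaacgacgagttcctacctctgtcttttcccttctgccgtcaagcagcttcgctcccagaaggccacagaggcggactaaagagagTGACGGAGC
Psmb10 (chr8:105938445-105938594, minus strand): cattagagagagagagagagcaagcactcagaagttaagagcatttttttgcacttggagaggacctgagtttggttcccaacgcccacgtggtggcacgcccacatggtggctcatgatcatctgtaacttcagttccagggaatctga
Psme2 (chr14:55591114-55591263, minus strand): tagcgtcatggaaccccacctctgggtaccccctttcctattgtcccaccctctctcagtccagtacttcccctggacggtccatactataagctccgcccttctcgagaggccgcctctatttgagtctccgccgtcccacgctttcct
Psme4 (chr11:30771576-30771725, plus strand): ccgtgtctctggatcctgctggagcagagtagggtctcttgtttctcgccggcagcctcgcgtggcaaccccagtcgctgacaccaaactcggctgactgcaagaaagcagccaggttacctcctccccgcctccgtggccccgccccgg

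These motifs were searched on both strands in the 250 bases before each RefSeq start. Such a start was found for 42 of the 50 genes. The letters TGANNNNGC occurred in 9 of 25 standard core and cap genes (36.0%) and in 38.9% of all 17492 protein-coding genes. They were also in 1 of the 3 immunoproteasome genes, Psmb9, and in 1 of the 2 genes Psme1 and Psme2. The CCAAT box occurred in 40.0% of the 25 and in 39.5% of all genes. The NF-kappaB element occurred in 8 of the 25 (32.0%) and in 21.98% of all, and the interferon-stimulated response element in 2 (8.0%) and in 3.48%. The gamma-interferon letters TTCNNNGAA were in 0 of the 25, in 1 of the 3 immunoproteasome genes and in 7.65% of all genes. The interferon-stimulated response element and the NF-kappaB element were in 0 of these 3 genes. The shares of core and cap genes thus lay near those of all genes for TGANNNNGC and CCAAT. These shares were not tested, and a match of letters is not a bound site.

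Of the 50 genes, 48 passed the filter on low counts in every comparison. The other two are forms of other tissues: Psma8, the alpha subunit of testis, had 0 to 3 reads in a muscle library and 4 to 14 in a fat library, and Psmb11, the beta subunit of the thymic cortex, had 1 read in the fat library of control 138 and 0 in the other 15 libraries. Levels between genes are compared per kilobase of exon. Across the 14 standard core subunits, which enter the barrel in equal numbers, mean levels ran from 13.9 scaled CPM per kilobase for Psmb3 to 64.0 for Psma6 in muscle, a 4.61-fold span. The same genes were lowest and highest in fat, at 7.74 and 42.7. Cap subunits ran from 9.12 for Psmd11 to 75.6 for the ATPase Psmc3 in muscle, and from 5.08 for Psmd11 to 32.5 for the ATPase Psmc1 in fat. These levels depend on which exons count as length. Psmb3 has 2300 bases of exon over all its transcripts and 766 in its longest coding one. The spans were taken with the exons of all transcripts only. The plot of levels by library shows the immunoproteasome genes far below the standard core in muscle and nearer to it in fat.

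**Figure D1:**
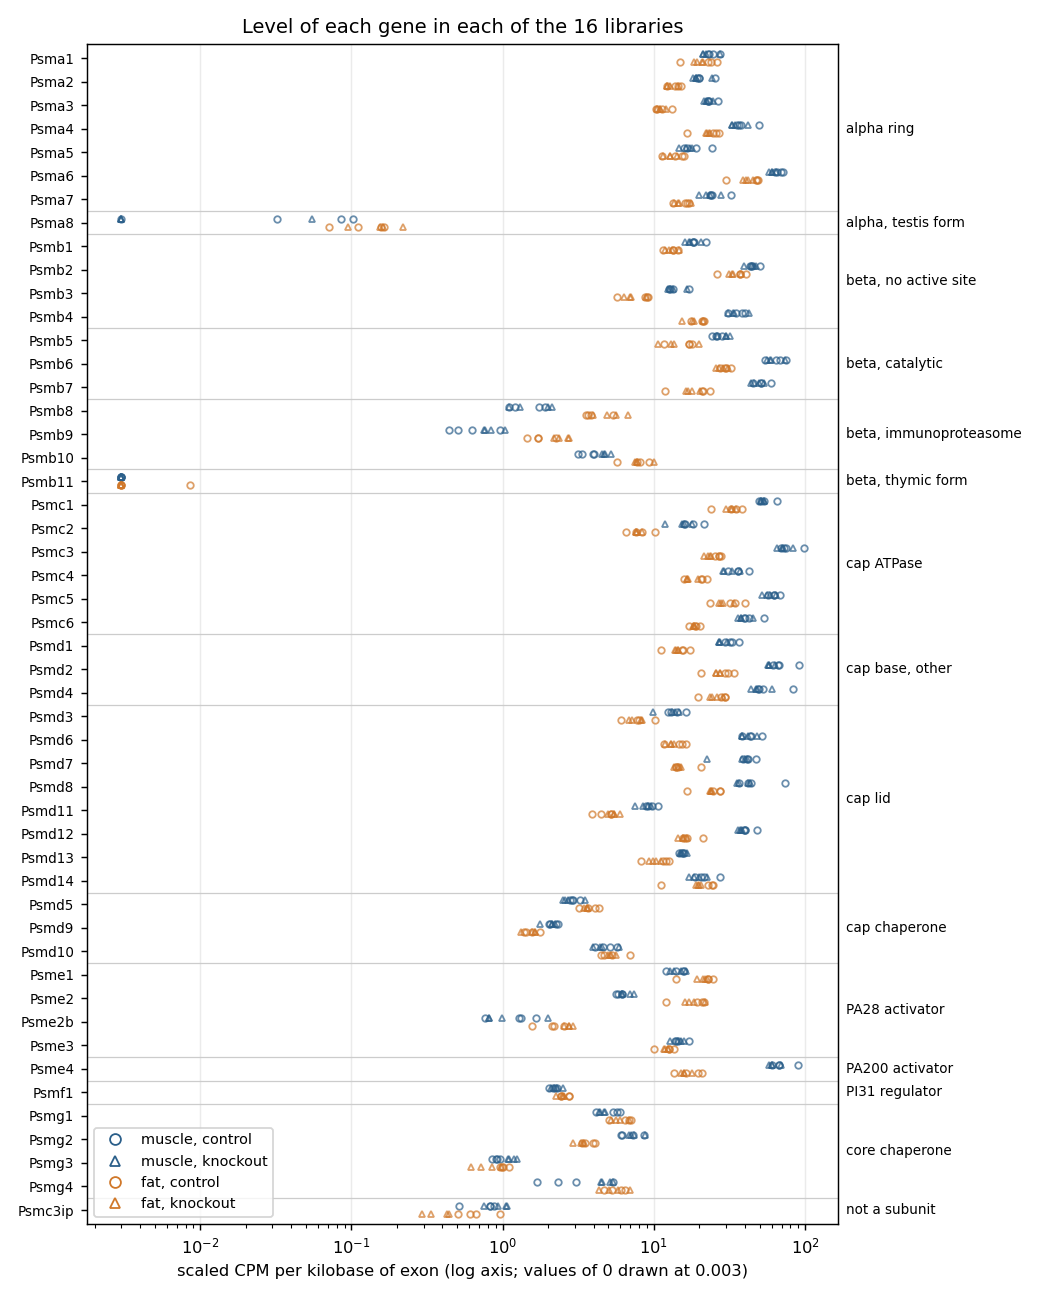
Scaled CPM per kilobase of exon (log axis) of the 50 genes, sorted by role, with 1 point per library (circles controls, triangles knockouts, blue muscle, orange fat; values of 0 are drawn at the left edge). Orange points lie left of blue ones for most core and cap subunits and right of them for Psmb8, Psmb9, Psmb10 and Psme2.

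The clearest difference between the tissues lay in the make-up of the proteasome genes. The 3 immunoproteasome subunits and the PA28 subunits Psme1 and Psme2 were higher in fat than in muscle, while the standard catalytic subunits, most of the cap and the PA200 gene Psme4 were lower in fat by TMM scaling. edgeR's quasi-likelihood test called 10 of the 48 tested genes higher and 34 lower in fat, against 44.0% of all 17084 genes tested called higher and 35.7% called lower. The median log2 fold change of fat over muscle was -0.71 over the 48 genes and 0.16 over all genes. In 4 of the 48 genes all fat libraries lay above all muscle libraries, and in 28 all lay below, against 26.9% and 25.2% of all genes. In whole tissue, fewer cells of a type and less RNA per cell cannot be told apart.

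The direction for single subunits depended on the scaling, so shares within a library come first in what follows. Total-count scaling moved the median of all genes from 0.16 to 1.36. The muscle libraries spend 21.4 to 23.9% of their counts on titin (Ttn), whose part in this shift was not tested. With total counts the median of the 48 genes was 0.48, with 36 called higher and 4 lower in fat. Of all 17084 genes tested, 13650 were then called higher and 1899 lower. The median of the 48 genes lay below that of all genes by 0.87 with TMM and by 0.88 with total counts. The 3 immunoproteasome subunits, Psme1, Psme2 and Psme2b were called higher under both scalings. Psmd5, Psmg1, Psmg4 and Psmf1, also called higher with TMM, likewise had higher mean CPM in fat with total counts. Their means in muscle and fat were 13.8 and 40.3, 4.34 and 12.5, 1.465 and 4.71, and 9.44 and 24.6. Psme4, Psmd6, Psmc3 and Psmb7 were called lower in fat under both, and no other member was called lower with total counts. The share of higher among all genes called moved from 55.2 to 87.8%.

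**Figure D2:**
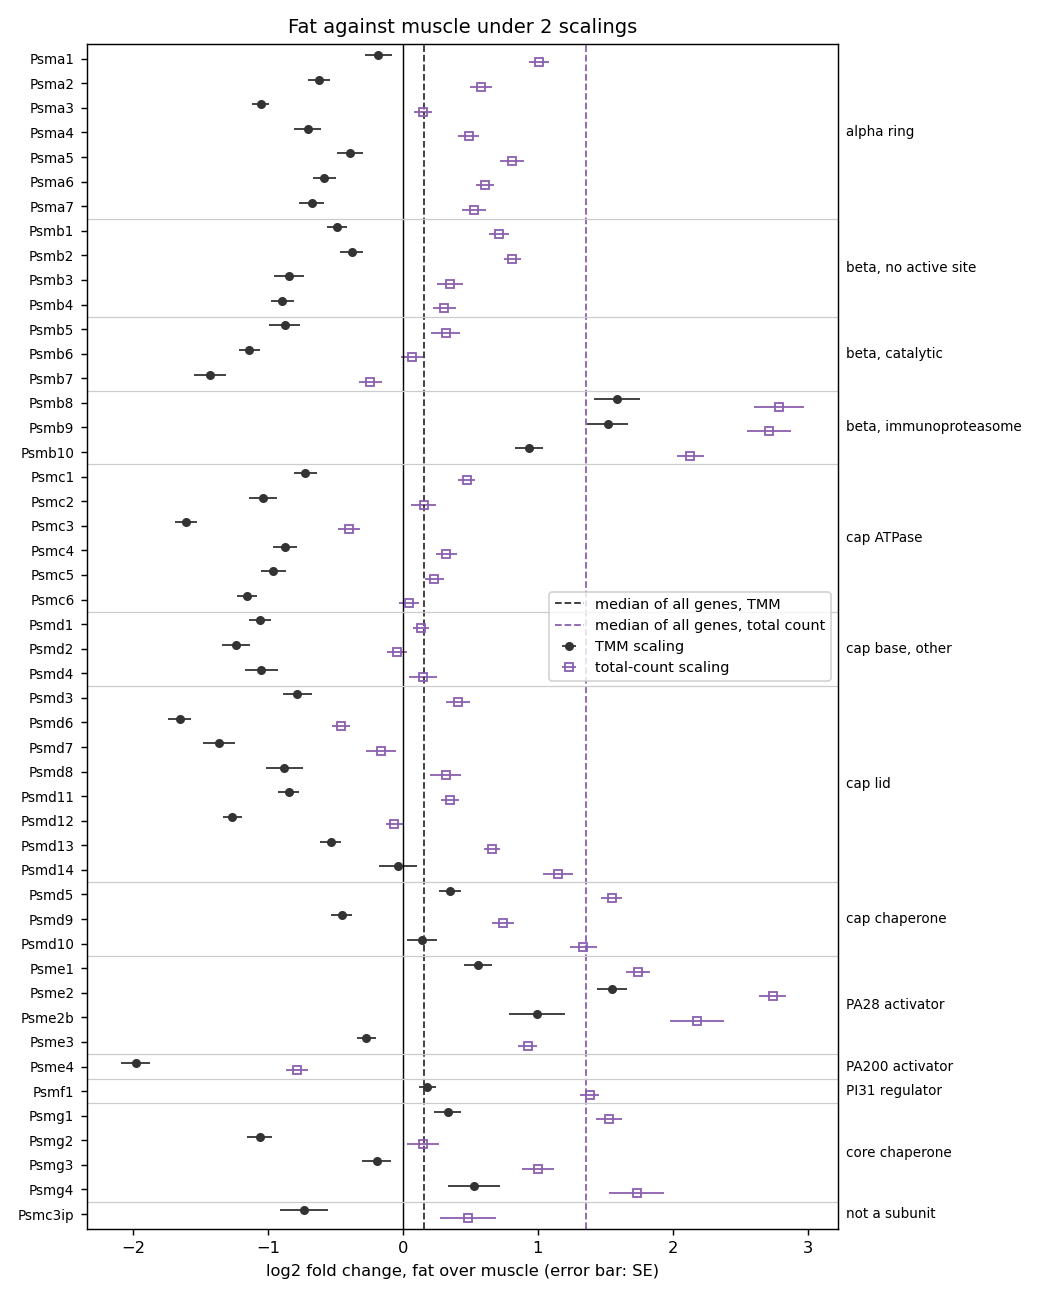
Log2 fold change of fat over muscle with its SE for the 48 tested genes, sorted by role, with TMM scaling (filled circles) and total-count scaling (open squares); dashed lines are the medians of all genes, 0.16 and 1.36. Psmb8, Psmb9, Psmb10 and Psme2 lie right of the median of all genes and Psme4 farthest left under both scalings.

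Psmb8, Psmb9 and Psmb10 together made up 4.40 ± 0.73% of the RNA of the 6 catalytic subunits in muscle and 19.2 ± 2.49% in fat (SD, n = 8 each), per kilobase of exon. In muscle the share was 3.05, 3.72, 4.58 and 4.08% in the controls and 4.94, 4.82, 4.77 and 5.26% in the knockouts. In fat it was 16.1, 16.4, 17.4 and 19.3% in the controls and 18.8, 23.0, 20.9 and 21.4% in the knockouts. Fat was higher in 8 of 8 mice and the tissues did not overlap; the fat library of control 138, at 17.4%, lay among the others. These shares do not depend on scaling between libraries, but they do on gene length: with the longest coding transcript as length they were 3.21% in muscle and 15.9% in fat.

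Each of the 3 pairs differed between the tissues. Psmb10 took 7.83 ± 1.5% of the sum with its standard counterpart Psmb7 in muscle and 30.3 ± 2.61% in fat (SD, n = 8 each). Psmb9 took 1.18 ± 0.38% of the sum with Psmb6 in muscle and 6.91 ± 1.58% in fat. Psmb8 took 5.30 ± 1.32% of the sum with Psmb5 in muscle and 24.0 ± 5.32% in fat. All 3 shares were higher in fat in 8 of 8 mice, and per kilobase of exon the Psmb10 share was the highest and the Psmb9 share the lowest in both tissues. With the longest coding transcript as length the order changed, with Psmb8 the highest, at 10.4% in muscle and 39.4% in fat, since the length of Psmb8 falls from 3381 to 1628 bases while that of Psmb5 stays at 899. Psmb5 shares 53.2% of its 51-base stretches, the read length, with other genes, mostly the pseudogene Gm3375, so its count is uncertain. Of the 50 genes, 9 shared more than 10% of their stretches. Besides Psmb5, Psme2 and Psme2b these were Psma5 (48.6%), Psmb3 (17.5%), Psmd2 (17.4%), Psma3 (15.35%), Psmc1 (13.5%) and Psma4 (11.3%). The same limit applies to their counts and levels.

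**Figure D3:**
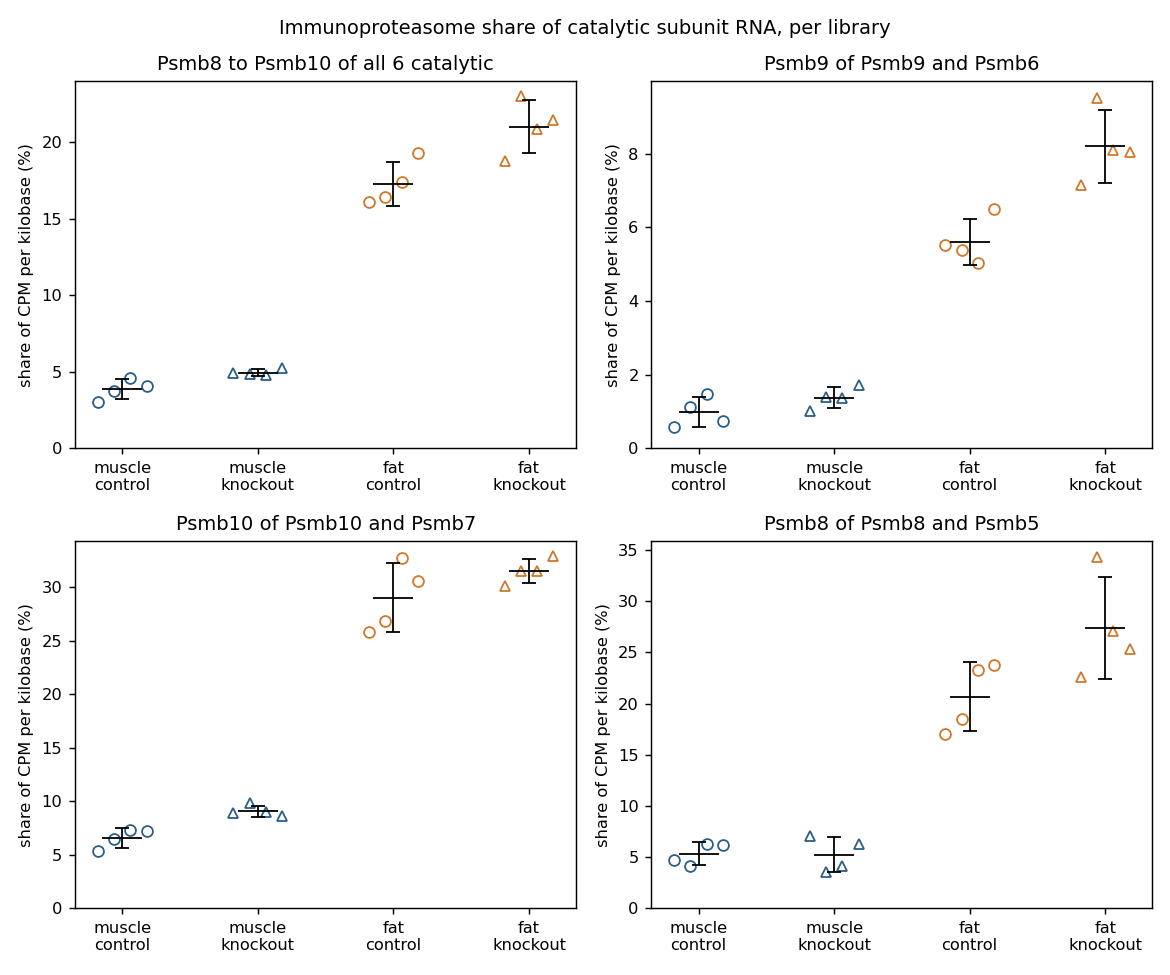
Share of catalytic subunit RNA held by the immunoproteasome forms in each library (percent of scaled CPM per kilobase of exon; points are the 4 mice of a group, bars the mean and SD). All fat libraries lie above all muscle libraries in each panel; the mean share of all 3 forms is 4.40% in muscle and 19.2% in fat.

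On the level scale the 3 immunoproteasome subunits were each higher in fat. Psmb8, the induced chymotrypsin-like form, stood at 4.07, 3.73, 6.41 and 5.86 scaled CPM in control muscle, 6.78, 3.73, 4.40 and 7.14 in knockout muscle, 12.5, 13, 11.9 and 18.1 in control fat and 13.5, 18.9, 16.4 and 22.9 in knockout fat. All fat libraries lay above all muscle libraries, and the fold was 3.0 (log2 1.58 ± 0.17 SE, adjusted p = 3.81e-07). Psmb9, the form that replaces Psmb6, lay between 1.61 and 3.81 in muscle, with a median of 2.78, and between 5.33 and 10.0 in fat, with a median of 8.17. Again the tissues did not overlap (log2 1.52 ± 0.15 SE, adjusted p = 1.45e-07). Psmb10, the trypsin-like form, lay at 5.33 to 8.88 in muscle and 9.80 to 16.99 in fat, a 1.91-fold difference (log2 0.94 ± 0.10 SE, adjusted p = 4.97e-07).

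Leukocytes carry immunoproteasomes constitutively, and their markers moved the same way. All 9 leukocyte markers, among them Ptprc (CD45), and all 8 macrophage markers were called higher in fat. The leukocyte markers summed to 26.0 to 43.5 scaled CPM in muscle and to 111 to 190 in fat, and the macrophage markers to 78.8 to 163 and to 337 to 682. No marker of these lists summed to 0 over the libraries of a tissue. Their part in the higher immunoproteasome share of fat was not tested. The 14 antigen presentation genes, from the peptide transporter to MHC class I chains, were all called higher in fat, with a median log2 fold change of 1.58. B2m, the light chain of MHC class I, was at 69.3 to 105 in muscle and at 279 to 1067 in fat (log2 3.37 ± 0.22 SE), with the lowest fat value in control 138. Tap1, the transporter subunit whose gene lies beside Psmb9, differed by 1.73 ± 0.18 (log2, SE).

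The standard catalytic subunits went the other way with TMM scaling. Psmb7 stood at 202, 154, 174 and 176 scaled CPM in control muscle and 183, 150, 157 and 169 in knockout muscle, against 79.9, 72.3, 40.4 and 71.7 in control fat and 61.1, 55.5, 57.1 and 69.5 in knockout fat. It was lower in fat by 1.43 ± 0.12 on the log2 scale (adjusted p = 1.79e-08), with the lowest value in the fat library of control 138, and stayed lower with total counts (log2 -0.24 ± 0.09 SE, adjusted p = 0.016). Psmb6 lay at 102 to 139 in muscle and 48.5 to 60.9 in fat (log2 -1.14 ± 0.08 SE), and Psmb5 at 21.8 to 28.5 and 9.61 to 17.9 (log2 -0.88 ± 0.12 SE). Both changed sign with total counts, to 0.07 and 0.32.

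Of the 7 alpha ring genes, 6 were called lower in fat, and Psma1 was not (log2 -0.18 ± 0.10 SE, adjusted p = 0.109). Their median log2 fold change was -0.62, the largest difference that of Psma3, at 84.1 to 104 scaled CPM in muscle and 40.1 to 51.7 in fat (log2 -1.05 ± 0.06 SE, adjusted p = 3.67e-10). All 4 beta subunits without an active site were called lower, between -0.38 for Psmb2 and -0.89 for Psmb4. Psmb4 lay at 60.5 to 83.6 in muscle and 30.03 to 42.2 in fat. Psma3 and Psmb4 also changed sign with total-count scaling, to 0.15 and 0.31. Most of the core did so: 13 of the 14 standard core subunits then had positive values, with a median of 0.51.

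The cap was lower in fat relative to the core. The median cap subunit stood at 1.48 ± 0.11 times the median standard core subunit in muscle and 1.05 ± 0.09 times in fat (SD, n = 8 each, per kilobase of exon), and fat was higher in 0 of 8 mice. With the longest coding transcript as length the ratios were 1.04 and 0.80. With total counts 12 of the 17 cap subunits had positive values, with a median of 0.15. By TMM 16 of the 17 were called lower in fat, with a median of -1.04. The 6 ATPases, which unfold the substrate, were all called, led by Psmc3 at 170 to 258 scaled CPM in muscle and 56.0 to 72.2 in fat (log2 -1.61 ± 0.08 SE, adjusted p = 3.88e-11). All 3 further base subunits were called, led by Psmd2, a scaffold that docks ubiquitin carriers, at 229 to 370 and 82.3 to 137 (log2 -1.24 ± 0.10 SE).

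In the lid, which removes ubiquitin chains, 7 of 8 subunits were called lower. Psmd6 had the largest difference, from 107 to 144 scaled CPM in muscle to 32.6 to 46.0 in fat (log2 -1.66 ± 0.08 SE, adjusted p = 5.31e-11). Psmd14, the deubiquitinase of the lid, was the exception, at 48.0 to 77.6 in muscle and 31.2 to 69.8 in fat (log2 -0.04 ± 0.14 SE, adjusted p = 0.821). Its lowest fat value was that of control 138; the other 7 lay between 53.8 and 69.8, and without that library the difference was 0.07 ± 0.07 (adjusted p = 0.391). With total counts Psmd14 was called higher in fat (log2 1.15). Psmd7, its partner in the same heterodimer, was lower in fat by 1.36 ± 0.12 on the log2 scale (adjusted p = 3.73e-08).

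The 2 kinds of activator of the core went opposite ways. Psme4 encodes PA200, a single large protein of the nucleus and cytosol, and was at 755, 568, 503 and 562 scaled CPM in control muscle and 505, 482, 506 and 580 in knockout muscle. In fat it was at 174, 163, 114 and 137 in the controls and 149, 132, 133 and 127 in the knockouts. It had the largest fall of the 48 genes, 3.94-fold with TMM (log2 -1.98 ± 0.11 SE, adjusted p = 1.14e-10), and was also lower with total counts (log2 -0.79 ± 0.08 SE). In muscle its level per kilobase, 66.5, was 2.50 times that of the median standard core subunit, and in fat it was 0.997 times. With the longest coding transcript as length these ratios were 1.49 and 0.599.

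Psme1 and Psme2, which together form the PA28 ring induced by interferon-gamma, were higher in fat. Psme2 was at 10.2, 10.9, 9.86 and 10.9 scaled CPM in control muscle, 12.2, 10.8, 10.8 and 13 in knockout muscle, 37.8, 34.1, 21.2 and 36.9 in control fat and 30.3, 32.3, 28.4 and 38.4 in knockout fat. The tissues did not overlap, and the fold was 2.93 (log2 1.55 ± 0.11 SE, adjusted p = 3.11e-09). Psme1 lay at 26.4 to 36.3 in muscle and 30.9 to 54.4 in fat (log2 0.56 ± 0.11 SE, adjusted p = 0.000166), and the fat library that overlapped with muscle was that of control 138. The mean of Psme1 and Psme2 was 0.159 ± 0.028 times Psme4 in muscle and 1.18 ± 0.17 times in fat (SD, n = 8 each, per kilobase), higher in 8 of 8 mice, and 0.239 and 1.75 times with the longest coding transcript. Psme1 exceeded Psme2 2.31 ± 0.34-fold in muscle and 1.16 ± 0.08-fold in fat, although the proteins assemble in near-equal numbers. Psme2 shares 28.0% of its 51-base stretches with Psme2b, so these counts can hold each other's reads.

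The third PA28 form, Psme3, is nuclear and not known as an interferon target. It was slightly lower in fat, at 37.6 to 50.1 scaled CPM in muscle and 29.4 to 40.4 in fat (log2 -0.27 ± 0.07 SE, adjusted p = 0.00269), and changed sign with total counts, to 0.92. Psme2b, an intronless copy of Psme2, was at 0.641 to 1.66 in muscle and 1.30 to 2.46 in fat (log2 0.99 ± 0.21 SE). With 68.2% of its stretches shared with Psme2, its count is uncertain.

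**Figure D4:**
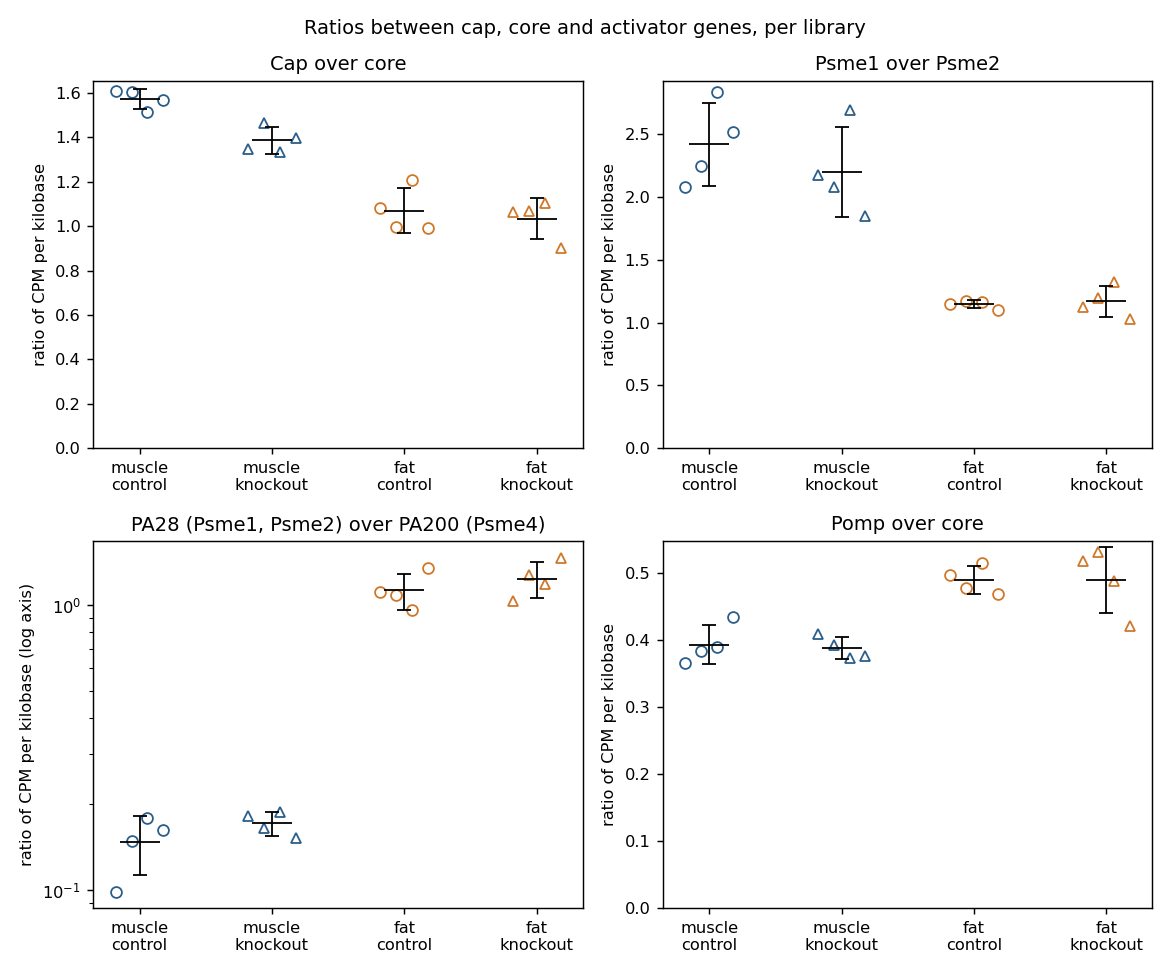
Ratios of scaled CPM per kilobase of exon in each library (points are the 4 mice of a group, bars the mean and SD; the PA28 over PA200 panel has a log axis). Cap over core and Psme1 over Psme2 are lower in all fat libraries than in all muscle libraries, and PA28 over PA200 rises from a mean of 0.159 to 1.18.

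Assembly factors were called in both directions. Of the 4 core chaperones, which join in pairs to build the alpha ring, Psmg4 and Psmg1 were called higher in fat (log2 0.53 ± 0.19 and 0.33 ± 0.10 SE) and Psmg2 lower (log2 -1.06 ± 0.09 SE). The call of Psmg4 was lost in 4 of 18 alternatives. Psmg2 lay at 10.51 to 15.3 scaled CPM in muscle and 5.04 to 7.12 in fat, and Psmg1, its partner in 1 of the pairs, at 5.53 to 8.03 and 6.79 to 9.49. With total counts Psmg2 moved to 0.15 and Psmd9 to 0.74. Pomp, the factor that matures the core, stood at 0.391 ± 0.022 times the median core subunit in muscle and 0.490 ± 0.035 times in fat (SD, n = 8 each), higher in 8 of 8 mice. Of the cap chaperones, Psmd5 was called higher (log2 0.35 ± 0.08 SE), Psmd9 lower (log2 -0.45 ± 0.08 SE) and Psmd10 neither. Psmf1, the regulator PI31, was at 12.9 to 16.1 in muscle and 14.5 to 17.8 in fat (log2 0.18 ± 0.06 SE, adjusted p = 0.0107). Psmc3ip, the recombination cofactor, was at 0.931 to 1.94 and 0.529 to 1.75 (log2 -0.73 ± 0.18 SE, and 0.48 with total counts).

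Genes that act with the proteasome were counted from lists of their roles. All 9 proteasome-bound factors, among them the ubiquitin receptor Adrm1 (log2 -0.57 ± 0.09 SE), the cap subunit Sem1 (-0.89 ± 0.08) and Pomp (-0.32 ± 0.07), were called lower in fat. Of 7 genes around the transcription factor Nfe2l1, which drives proteasome genes when proteolysis falls short, 5 were called lower and 0 higher. Nfe2l1 itself was at 571 to 693 scaled CPM in muscle and 151 to 303 in fat (log2 -1.36 ± 0.12 SE, adjusted p = 3.41e-08), with the lowest value in control 138. Of 6 shuttle factors, which carry ubiquitinated proteins to the cap, 4 were called lower and 2 higher. Of the 9 genes of the ubiquitin list, 5 were called lower and 1 higher. The ubiquitin gene Ubb was among those called lower (log2 -0.39 ± 0.13 SE, edgeR adjusted p = 0.0109). The same scaling dependence applies to these counts.

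In muscle, the tissue of the knockout, edgeR called 0 of the 48 genes changed between knockouts and controls, with 6 at an unadjusted p under 0.05. Across all 14183 genes tested, 0% were called higher and 0.0141% lower, with 715 genes at an unadjusted p under 0.05. DESeq2 and limma voom also called 0 of the 48. Of the 31 standard core and cap subunits, 29 had a negative log2 fold change, against 49.15% of all genes, and none was called. Their median was -0.13 (range -0.33 to 0.17), against 0.003 over all genes, and the positive ones were Psmb5 and Psmd13. Without mouse 131 the median over the 48 genes moved from -0.09 to -0.04. Without the muscle libraries of controls 131 and 11, 22 of the 31 were negative (median -0.06), and with total counts 25 of 31 (median -0.05). The 3 immunoproteasome subunits had positive values, between 0.12 and 0.40, with a median of 0.40; without controls 131 and 11 it was 0.10.

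Psmb10 had the smallest p of the 48 genes in muscle. It was at 5.67, 5.33, 6.82 and 6.79 scaled CPM in the controls and at 8.88, 8.16, 7.74 and 7.95 in the knockouts, so that the groups did not overlap. The log2 fold change was 0.40 ± 0.13 SE and did not pass correction (edgeR adjusted p = 0.907); it was 0.41 without controls 131 and 11. As a share of Psmb10 and Psmb7 it was 5.33, 6.49, 7.30 and 7.19% in the controls and 8.88, 9.81, 9.01 and 8.64% in the knockouts. Psmb9 was at 1.61, 2.29, 3.53 and 1.86 in the controls and 2.75, 3.04, 2.81 and 3.81 in the knockouts (log2 0.40 ± 0.24 SE, and 0.08 without controls 131 and 11). Psmb8 differed by 0.12 ± 0.23, and both genes overlapped between groups. Of the 48 genes, 2 lay higher in all knockouts (Psmb10 and the core chaperone Psmg3) and 1 lower (the lid subunit Psmd12), against 1.86% and 1.26% of all genes.

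All 9 leukocyte and all 8 macrophage markers also had positive log2 fold changes in knockout muscle, with medians of 0.44 and 0.43 and 0 called. The leukocyte sums were 30.6, 28.1, 37.8 and 26.0 scaled CPM in the controls and 40.0, 43.5, 37.3 and 38.1 in the knockouts. B and T cell markers did not pass the count filter in muscle. The part of these markers in the values of Psmb10 was not tested. Of the 14 antigen presentation genes, 13 had positive values, with a median of 0.17 and 0 called.

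The largest values of the other roles in muscle did not pass correction either. Psmd2 was at 370, 266, 249 and 273 scaled CPM in the controls and 233, 229, 233 and 257 in the knockouts (log2 -0.29 ± 0.11 SE, adjusted p = 0.94), and moved to -0.13 without controls 131 and 11. Psmd8, a lid subunit, was at 227, 134, 129 and 112 and at 133, 112, 109 and 128 (log2 -0.33 ± 0.20 SE). Control 131 alone lay far above the rest, and without it the difference was -0.07 ± 0.09. Psmg4, a core chaperone, was at 3.0, 1.69, 1.28 and 0.93 and at 2.84, 2.49, 2.50 and 2.99 (log2 0.67 ± 0.29 SE, adjusted p = 0.949), from 10 to 44 reads per library; it was 1.03 without mouse 131 and 0.47 without mouse 11. The groups overlapped in all 3 genes.

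The remaining named values in muscle were as follows. Psmc2 (-0.23 ± 0.13), Psme4 (-0.21 ± 0.11), the alpha subunit Psma5 (-0.20 ± 0.12), Psmb1 (-0.13 ± 0.09), Psmb7 (-0.11 ± 0.09), Psmb6 (-0.09 ± 0.10) and the chaperone Psmd5 (-0.08 ± 0.11) were negative (log2, SE). Psme4, Psma5 and Psmb1 were highest in control 131, at 755, 32.0 and 101.5 scaled CPM. The other controls were at most at 568, 25.25 and 84.5, and the log2 values of these genes without control 131 are not reported here. Psmb5 (0.17 ± 0.09), Psme2 (0.15 ± 0.11), Psmf1 (0.06 ± 0.10) and Psmc3ip (0.32 ± 0.25) were positive, and Psme1 was near 0 (0.004 ± 0.107). None of these was called. With 4 mice a group, SEs of about 0.1 leave differences of this size undetected in single subunits, so they are not shown to be equal.

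The ratio of the median cap to the median core subunit in muscle was 1.61, 1.6, 1.51 and 1.57 in the controls and 1.35, 1.47, 1.33 and 1.40 in the knockouts, without overlap. With the longest coding transcript as length, or with no length, the groups overlapped. Of 11 ratios compared between genotypes in both tissues, 4 of 22 comparisons were without overlap per kilobase of exon. These were the cap ratio, the Psmb10 share and the immunoproteasome share in muscle and the Psmb9 share in fat. With the longest coding transcript 3 remained, all but the cap ratio, and with no length 2, those of Psmb10 and Psmb9. The ratios share genes, so the comparisons are not independent, and they were not tested. Of all single genes, 1.86% lay higher and 1.26% lower in all knockouts in muscle, and 3.31% and 3.01% in fat.

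In fat, where the knockout was not targeted, edgeR again called 0 of the 48 genes, with 3 at an unadjusted p under 0.05, and so did DESeq2 and limma voom. Across all 16323 genes tested 0% were called higher and 0.00613% lower, with 1305 at an unadjusted p under 0.05. The 14 standard core subunits were all slightly negative, with a median of -0.10, and so were 14 of the 17 cap subunits, with a median of -0.07 and one of -0.01 over all genes. Over all genes 52.1% were negative. These small values rested on single mice: without mouse 131, 10 of the 14 core and 9 of the 17 cap subunits were negative, and the median of the 31 moved from -0.09 to -0.02. Without mouse 138 it moved to -0.18, with 30 of 31 negative. The 3 immunoproteasome subunits were again positive, between 0.09 and 0.49, but without mouse 138 Psmb10 was at -0.03.

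Psmb9 was at 6.31, 6.22, 5.33 and 8.27 scaled CPM in control fat and at 8.05, 10.0, 8.67 and 9.91 in knockout fat. The knockout values overlapped with that of control 11 only, and the difference did not pass correction (log2 0.49 ± 0.16 SE, edgeR adjusted p = 0.588; 0.40 with an adjusted p of 0.226 without mouse 138). Its share of Psmb9 and Psmb6 was 5.53, 5.40, 5.03 and 6.50% in the controls and 7.14, 9.53, 8.11 and 8.04% in the knockouts, without overlap. Psmb8 differed by 0.37 ± 0.20 and Psmb10 by 0.09 ± 0.16 (log2, SE), neither called. In fat 8 of 9 leukocyte markers were negative, with a median of -0.22 and 0 called. Their sums were 170, 152, 148 and 189 in the controls and 111, 190, 125 and 159 in the knockouts. All 8 macrophage markers were negative, with a median of -0.22 and 0 called. Of the 14 antigen presentation genes, 13 had positive values, with a median of 0.22 and 0 called. Their sums were 2942, 2878, 1537 and 3040 scaled CPM in the controls and 2912, 3016, 3000 and 3168 in the knockouts. Only control 138 lay far below the rest, and the other controls overlapped with the knockouts. The part of these lists in the values of Psmb9 was not tested.

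Other members in fat were separated without passing correction. Psmc3 was at 72.2, 70.2, 66.4 and 70.4 scaled CPM in the controls and 61.0, 59.4, 56.0 and 62.6 in the knockouts (log2 -0.23 ± 0.07 SE, edgeR adjusted p = 0.588). Psmc3ip, the recombination cofactor, was at 1.21, 0.922, 1.75 and 1.11 and at 0.612, 0.529, 0.781 and 0.809 (log2 -0.86 ± 0.27 SE, adjusted p = 0.588; -0.65 without mouse 138), from 11 to 43 reads per library. In total 2 of the 48 genes, these, lay lower in all knockouts and 1, Psme2b, higher, against 3.01% and 3.31% of all genes.

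Psme2b was at 1.83, 2.12, 1.30 and 1.77 scaled CPM in control fat and at 2.31, 2.31, 2.46 and 2.14 in knockout fat (log2 0.39 ± 0.18 SE, adjusted p = 0.627; 0.28 without mouse 138). In muscle it differed by -0.11 ± 0.37, and by 0.15 without controls 131 and 11. Its gene (chr11:48945354-48946190) lies 39.1 kb from Tgtp1, an interferon-inducible GTPase called lower in knockout muscle (log2 -6.34 ± 0.71 SE, adjusted p = 0.00278), and 69.7 kb from 9930111J21Rik2, called lower in both tissues (-6.61 ± 0.37 in muscle, -5.30 ± 0.44 in fat). These 2 genes are the only ones called by edgeR between genotypes in either tissue. Psme2b was called in neither tissue.

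The remaining named genes in fat were Psmd11 (0.21 ± 0.11), Psmg3 (-0.36 ± 0.18), Psmb4 (-0.16 ± 0.11), Psmb5 (-0.15 ± 0.21), Psma1 (-0.14 ± 0.16), Psmb7 (-0.12 ± 0.20), Psme4 (-0.12 ± 0.14), Psmd2 (-0.12 ± 0.15), Psmb6 (-0.09 ± 0.09), Psmf1 (-0.09 ± 0.08) and Psmd5 (-0.08 ± 0.10), as log2 fold change with SE. Psme1 and Psme2 differed by 0.01 ± 0.17 and -0.01 ± 0.19. Without mouse 138 Psmb7 was at -0.29 and Psmd2 at -0.25. Psma1, Psmb5 and Psme4 also had their lowest control value in mouse 138, at 43.7, 10.5 and 114 scaled CPM. Their log2 values without it are not reported here. None of the genes listed was called.

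**Figure D5:**
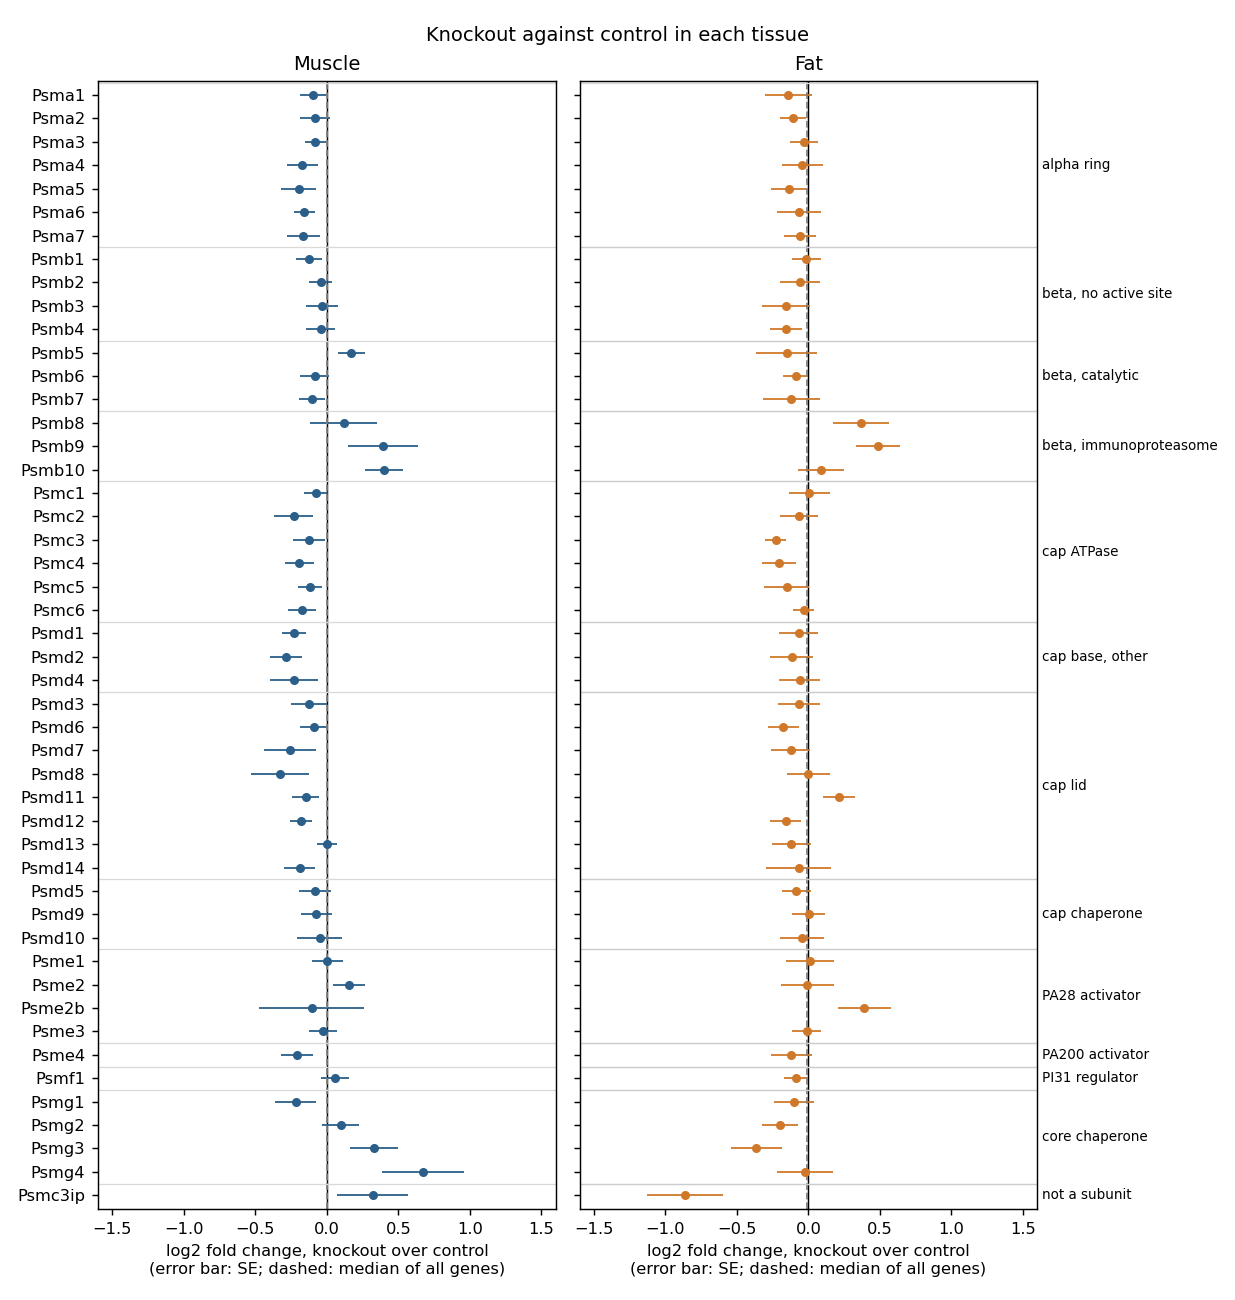
Log2 fold change of knockout over control with its SE for the 48 tested genes in muscle (left) and fat (right), sorted by role; the dashed line is the median of all genes. Most core and cap subunits sit slightly left of 0 and the 3 immunoproteasome subunits right of 0 in both tissues, and edgeR called 0 of the 48 in either.

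The difference between the genotype effects in fat and in muscle was tested over all 16 libraries, and edgeR called 0 of the 48 genes, with 3 at an unadjusted p under 0.05. Over all genes 0% were called higher and 0% lower, with 1229 at an unadjusted p under 0.05; DESeq2 called 7 genes, none of them among the 48. The 3 were Psmc3ip (-1.18 ± 0.36), Psmg3 (-0.70 ± 0.22) and Psmd11 (0.36 ± 0.15), as log2 differences with SE and edgeR adjusted p of 0.653, 0.653 and 0.673. Psmg3 was at 2.46, 2.62, 2.65 and 2.79 scaled CPM in control muscle and 3.57, 3.46, 3.19 and 3.13 in knockout muscle, and at 2.92, 3.18, 2.85 and 2.79 in control fat and 2.83, 2.07, 2.46 and 1.78 in knockout fat. For the immunoproteasome subunits the differences were 0.24 ± 0.34 for Psmb8, 0.08 ± 0.30 for Psmb9 and -0.32 ± 0.20 for Psmb10. The tissue contrast of the proteasome genes was therefore not shown to differ between genotypes.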

How the data were processed

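RNA of both tissues was sequenced after ribosomal RNA depletion as stranded libraries, per the labels' protocols. The authors deposited raw counts per Ensembl gene, with no scaling. GRCm38, DESeq2 1.22.2, featureCounts 1.6.3 and STAR 2.7.0f are named in the submitters' processing notes, with no role or order. The sources used here give neither the strand setting nor how reads with several matches were counted.

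From these counts, edgeR 4.0.16 (R 4.3.3) was fitted to all genes: filterByExpr, TMM scaling, robust quasi-likelihood F test, Benjamini-Hochberg adjustment over all genes, called at an adjusted p under 0.05. Genotype was fitted in each tissue over 8 libraries, and tissue and its interaction with genotype over 16. Each SE was obtained from the log2 fold change and its F value (absolute change over root F). Levels are CPM with the TMM factors of the 16 libraries, and lengths are the union of GENCODE M21 exons. Alternatives were other scalings and filters, DESeq2 1.42.0, limma 3.58.1 voom, 1 fit of all libraries, mouse as block and leaving out mice; leaving out the fat library of 138 or the muscle libraries of 131 and 11 was added after seeing the data. The mouse number in the subject label pairs the tissues; deviations from group means correlated at -0.02 to 0.17 between the libraries of a mouse. The procedure was tested on simulated counts.

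Members and gene lists were chosen with earlier results of these data known. Named genes are the catalytic, immunoproteasome, Psme1 and Psme2 genes, the largest change per role in each comparison, and Nfe2l1, Pomp, Adrm1, Sem1, Tap1, B2m and Ubb of the related lists, of which 1 further gene is not reported here; Psma1, Psmd7, Psmd10, Psmd12, Psmd14, Psmg1, Psmb2, Psmb3, Psma6, Psmc1, Tgtp1 and 9930111J21Rik2 were named in some comparisons after their values were seen. Reads carry no molecular identifiers. No libraries of a group agreed within sampling noise (smallest chi-square per degree of freedom 7.49).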

Additional observations from a re-analysis of the deposited data

Results flagged for a closer look

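Of 116 groups of 4 mice examined among the named genes, 8 held a value far from the other 3 by Dixon's test at the 95% level, where chance gives about 1 in 20. In muscle these were Psma1 in knockout 139 (80.8 scaled CPM), Psma3 (104) and Psmb1 (101) in control 131, Psmd2 in knockout 29 (257) and Psme2b in knockout 958 (1.66), all above the rest of their group. In fat these were Psmb10 (17) and Psmc2 (42.1) in knockout 29, both above, and Psmb5 in control 138 (10.5), below. The last is the library that stood apart by its urothelial and smooth muscle genes.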

How the results depend on the processing

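The number of members called between genotypes, and in the interaction, was 0 under every alternative run. The count of all genes called moved: in muscle from 2 to 80 with no filter on low counts, 1 at 1 CPM in 4 libraries and 9 with DESeq2, and to 1 to 10 leaving out 1 mouse; in fat from 1 to 72 with DESeq2, 0 with limma voom and 6 in 1 fit of all libraries, and to 0 to 6 leaving out 1 mouse; in the interaction from 0 to 7 with DESeq2 and 3 without the fat library of control 138. With the mouse as replicate block the tissue fit again called 10 members higher and 34 lower, the interaction 0, and no call changed. Total-count scaling gave 36 members higher and 4 lower in fat, against 13650 higher and 1899 lower of all 17084 genes tested. With this scaling 25 of the 31 standard core and cap subunits had positive values. Among the genes named by rule it reversed Psma3 (0.148), Psmb4 (0.308), Psmb5 (0.316), Psmb6 (0.0674), Psmc3ip (0.479), Psmd9 (0.743), Psme3 (0.924) and Psmg2 (0.151). The share of higher among all genes called was 55.2% with TMM and 87.8% with total counts. Over the 18 alternatives of the tissue fit, Psmg4 lost its call in 4, and Psmd2 and Psmf1 each in 1, without a change of sign. The immunoproteasome percent of the 6 catalytic subunits was 3.21 in muscle and 15.9 in fat with the longest coding transcript, and 22.2 in fat with no length.

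Genotype values near 0 changed sign. In muscle these were Psmb6 (0.0452 without 131 and 11), Psmb8 (-0.0476 to 0.266 leaving out 1 mouse; -0.00564 without 137) and Psme1 (-0.00201 with RLE, -0.00187 with DESeq2, -0.0575 without 131 and 11, and -0.0755 to 0.0558 leaving out 1 mouse). In fat these were Psmb10 (-0.0258 to 0.176 leaving out 1 mouse; lowest without 138), Psme1 (-0.00224 with total counts, -0.141 to 0.0847 leaving out 1 mouse) and Psme2 (0.013 with upper quartile, 0.0186 with voom, -0.163 to 0.0656 leaving out 1 mouse). The cause was not tested. At 10 to 56 reads per muscle library for Psmb9 and Psmg4, counting error limits their precision.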
